A study of Mus musculus with 16 samples.

Results

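The 8 libraries compared here hold the RNA of sorted dorsal root ganglion cells from mice that had received vehicle only: 4 titled Nav1.8/LTbR CKO (CKO) and 4 titled LTbR-fl/fl (fl/fl), out of 16 libraries in all. They were chosen by their titles, which carry a calendar date, 1 October or 2 October, with 2 libraries of each genotype on each date. The other 8 libraries are the same genotypes after paclitaxel (PTX), given at 6 mg/kg in 3 intraperitoneal injections 2 days apart, and appear below only beside the vehicle values.

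Both genotypes are floxed at Ltbr, which encodes the lymphotoxin beta receptor, and the CKO mice also carry Cre under control of Nav1.8. No group without floxed alleles and none with Cre alone was analysed here. The mice were males of 8 to 16 weeks. Fluorescent wheat germ agglutinin was injected into the paw 16 days after the last injection, lumbar ganglia L3 to L5 of both sides were taken on day 18, and tracer-positive cells were sorted. The treatment label of the 8 libraries is "Water", although the treatment text attached to them describes PTX. The design text gives 3 samples per group, where the labels list 4. It is not said whether each library is 1 animal or a pool, or what the date in a title records, so p-values here measure only library-to-library spread, part of which may be technical.

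The lymphotoxin beta receptor is a member of the TNF receptor family that binds lymphotoxin and LIGHT (Tnfsf14). Its best-known output is the non-canonical NF-kB pathway: the kinase NIK (Map3k14), otherwise degraded through TRAF and cIAP proteins, accumulates and drives processing of p100 (Nfkb2) to p52, which pairs with RelB. Nav1.8, encoded by Scn10a, is a sodium channel of small-diameter sensory neurons, many of them nociceptors, and Cre expressed from its gene deletes floxed DNA in those neurons and not in glia, Schwann cells or leukocytes. A comparison of the genotypes under vehicle asks what loss of the receptor in these neurons changes at baseline.

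The 8 libraries held 8477798 to 11606583 counts on genes, with 12669 to 14787 genes having at least 1 count. Of 22609 genes, 12709 passed the filter on low counts and were tested. Libraries of a group differed far beyond counting error, with a chi-square per degree of freedom of 63.56 to 201.4 over 12 pairs. Many genes were present in 1 library of a group and absent from another: 2120 genes (16.7 percent of those tested) had 0 counts in 1 library and at least 50 in another of the same genotype.

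Markers of neurons made up a small share of the counts of these tracer-sorted cells, and markers of neutrophils a large one. The share is the sum of the counts of a marker list over all gene counts of a library. The 16 pan-neuronal sensory markers tested took 0.240, 0.0989, 0.487 and 0.754 percent in fl/fl replicates 1 to 4 and 0.400, 0.151, 0.225 and 0.312 percent in CKO replicates 1 to 4. Replicates 1 and 2 of each genotype are dated 1 October, and replicates 3 and 4 are dated 2 October. Neutrophil markers, granule and alarmin genes such as S100a8, Ngp and Mmp8, took 19.1, 18.2, 8.89 and 9.09 percent in fl/fl and 8.06, 13.0, 19.8 and 20.2 percent in CKO. The fl/fl libraries were thus the high ones on 1 October and the CKO libraries on 2 October. Over both dates the mean neutrophil share was 13.8 ± 5.60 percent in fl/fl and 15.3 ± 5.85 percent in CKO (SD, n = 4 each).

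Markers of satellite glial cells, which wrap sensory neuron cell bodies, crossed the other way. Their share was 2.67 and 2.43 percent in fl/fl and 3.42 and 3.55 percent in CKO on 1 October, against 4.24 and 3.41 percent in fl/fl and 1.92 and 1.06 percent in CKO on 2 October. The CKO to fl/fl ratio of mean shares on 1 October and on 2 October was 0.563 and 2.23 for neutrophil markers. The same ratio was 1.37 and 0.389 for satellite glial markers, 1.65 and 0.638 for myelinating Schwann cell markers, 1.63 and 0.433 for pan-neuronal markers, and 1.56 and 0.237 for fibroblast markers. In bulk RNA, fewer cells of a type and less RNA per cell cannot be told apart.

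**Figure D1:**
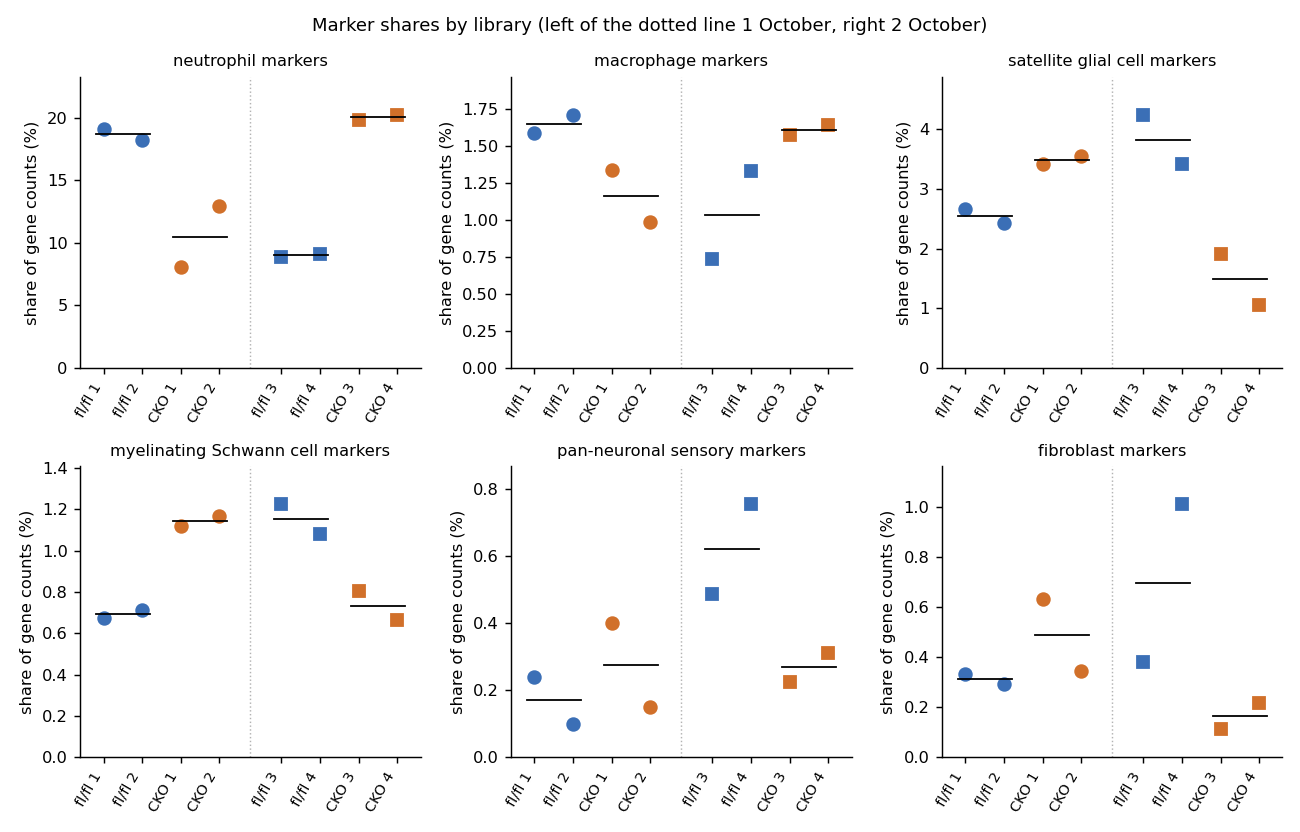
Share of gene counts in percent taken by 6 marker lists in each vehicle library, fl/fl in blue and CKO in orange, 1 October as circles left of the dotted line and 2 October as squares right of it; bars are means of 2 libraries. Neutrophil shares are 18.2 to 19.1 percent in fl/fl and 8.06 to 13.0 percent in CKO on 1 October, and 8.89 to 9.09 and 19.8 to 20.2 percent on 2 October, while satellite glial and Schwann cell markers lie the opposite way on each date.

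Ltbr, the targeted gene, had no lower level under the CKO label. It measured 40.1, 48.6, 45.7 and 44.5 CPM (counts scaled to a common library size by the trimmed mean of M-values, TMM) in fl/fl replicates 1 to 4, and 93.7, 51.5, 31.4 and 30.6 CPM in CKO replicates 1 to 4. Both CKO libraries lay above both fl/fl libraries on 1 October and below both on 2 October. The means were 44.7 ± 3.54 CPM in fl/fl and 51.8 ± 29.6 CPM in CKO (SD, n = 4 each), and the edgeR log2 difference of CKO minus fl/fl with date as a block was 0.09 ± 0.40 (SE). Permuting genotype within dates, an exact two-sided permutation test gave p = 0.944 for a difference of 0.06 in log2(CPM + 1), where the smallest p of its 36 assignments is 0.0556. By date, the edgeR log2 difference was 0.71 on 1 October and -0.54 on 2 October, and the difference between the dates, -1.25 ± 0.68, did not pass (edgeR adjusted p = 0.493).

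The value of Ltbr turned to -0.19 without CKO replicate 1, which held the highest level of the 8, and to -0.12 and -0.02 without fl/fl replicate 1 or 2. The libraries carry the label of a knockout restricted to Nav1.8 neurons, and the counts cover the whole gene in every sorted cell, so neither a deleted exon nor the neurons alone can be read from them. For this reason the labels are used below as given, with the targeted gene offering no check of them. The order of the genotypes in Ltbr, in Scn10a and in the mean neutrophil, glial and neuronal shares turned round between the dates. Whether the genotype labels of 1 date were exchanged was not tested, and a value combined over the dates is a genotype difference only if they were not.

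Scn10a, the gene whose control region drives Cre, differed more by date than by genotype. Its level was 20.3, 29.1, 146 and 149 CPM in fl/fl replicates 1 to 4, and 48.6, 50.3, 101 and 124 CPM in CKO replicates 1 to 4. The CKO libraries were above fl/fl on 1 October and below on 2 October. The edgeR log2 difference was 0.30 ± 0.36, and the exact two-sided permutation test within dates gave p = 0.444. Across dates, the 4 libraries of 2 October all lay above the 4 of 1 October.

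**Figure D2:**
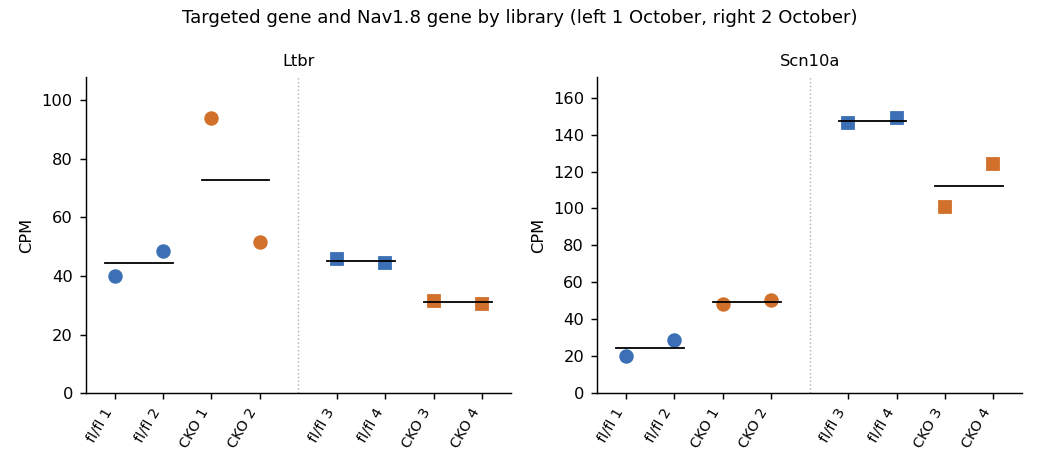
CPM of Ltbr (left) and Scn10a (right) in each vehicle library, fl/fl in blue and CKO in orange, 1 October as circles and 2 October as squares, bars at the mean of 2 libraries. CKO libraries lie above fl/fl on 1 October and below on 2 October for both genes.

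Across the transcriptome, no gene was called by genotype under vehicle. With date as a block, edgeR's quasi-likelihood test with Benjamini-Hochberg adjustment called 0 of 12709 genes higher and 0 lower in CKO at the threshold of 0.05 (0 percent each). An unadjusted edgeR p under 0.05 was held by 239 genes (1.88 percent), a smaller share than this threshold gives by chance where nothing differs. The limma-voom test called 0, and DESeq2 called 6 higher and 14 lower. Of the genes tested, 115 (0.905 percent) had all 4 CKO libraries above all 4 fl/fl libraries and 212 (1.67 percent) had all 4 below.

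Comparing within dates, CKO lay above fl/fl on both dates for 208 genes (1.64 percent) and below on both for 388 (3.05 percent). Genes whose order turned round between the dates were more frequent. CKO was below fl/fl on 1 October and above on 2 October for 914 genes (7.19 percent), and the reverse held for 775 genes (6.1 percent).

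Because no gene passed, the 10 genes in each direction with the smallest unadjusted p, a group mean of 5 CPM or more where higher, and no overlap between genotypes on either date are given as values, not as changes. Their p and their lack of overlap chose them and support nothing, and each has an edgeR adjusted p of 1.00. Tet2, a dioxygenase that oxidises methylated cytosine, measured 37.7, 64.1, 24.7 and 26.1 CPM in fl/fl replicates 1 to 4, and 92.6, 129, 89.1 and 85.9 CPM in CKO. All CKO libraries lay above all fl/fl libraries, with a log2 difference of 1.45 ± 0.33 (SE).

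Brd8, a bromodomain subunit of the TIP60 acetyltransferase complex, measured 44.2, 65.1, 37.5 and 39.7 CPM in fl/fl and 112, 108, 77.1 and 93.5 CPM in CKO, a log2 difference of 1.07 ± 0.29. Hdac4, a class IIa histone deacetylase, measured 52.0, 52.0, 51.0 and 42.7 CPM in fl/fl and 79.9, 119, 90.4 and 109 CPM in CKO, a log2 difference of 1.01 ± 0.28. The groups of both genes were separate, and the fl/fl levels of Hdac4 spanned a narrow range. Med20, a subunit of the Mediator complex, measured 19.9, 64.6, 30.2 and 41.1 CPM in fl/fl and 90.1, 103, 121 and 84.3 CPM in CKO, with a log2 difference of 1.36 ± 0.40. Atxn7, a subunit of the SAGA coactivator complex, measured 16.1, 25.2, 22.5 and 15.2 CPM in fl/fl and 108, 67.1, 28.7 and 61.6 CPM in CKO, with a log2 difference of 1.67 ± 0.44. For Atxn7, CKO replicate 3 came close to the fl/fl level.

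The other genes with higher values in CKO have varied roles. Psd3, an exchange factor for the small GTPase ARF6, measured 3.20, 14.2, 8.19 and 14.7 CPM in fl/fl and 43.4, 34.9, 52.5 and 42.6 CPM in CKO, with no overlap and a log2 difference of 2.11 ± 0.58. Nsun4, a methyltransferase of mitochondrial ribosomal RNA, measured 3.00, 10.6, 4.76 and 0.553 CPM in fl/fl and 27.4, 57.6, 44.7 and 18.1 CPM in CKO. Nusap1, a spindle protein of dividing cells, measured 17.4, 13.1, 4.84 and 1.42 CPM in fl/fl and 64.6, 23.9, 40.0 and 47.3 CPM in CKO. Their log2 differences were 3.10 ± 0.85 and 2.66 ± 0.74.

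Ddx51, an RNA helicase of ribosome assembly, measured 4.55, 5.87, 0 and 0.474 CPM in fl/fl and 74.0, 16.7, 24.4 and 5.82 CPM in CKO, where CKO replicate 4 was level with fl/fl replicate 2. Il12a, the p35 subunit of interleukin 12, had 0 counts in all 4 fl/fl libraries and 11.5, 1.78, 8.36 and 3.95 CPM in CKO. Against a floor of 3 counts over the fl/fl group, its 234 counts in CKO make it at least 92.3-fold higher. Among the genes tested such contrasts between presence and absence also occurred inside a genotype, in 977 genes (7.69 percent) within fl/fl and 1647 (13 percent) within CKO.

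Of the genes with lower values in CKO, Bend6, a BEN domain protein known as a neural corepressor of Notch signalling, had the smallest unadjusted p. It measured 22.0, 5.20, 16.2 and 36.6 CPM in fl/fl replicates 1 to 4, and 0.106, 0, 0 and 0.197 CPM in CKO. The 4 CKO libraries held 3 counts in all against 930 in fl/fl, a fl/fl to CKO ratio of 262 with a 95 percent interval for counting error of 89.3 to 1272. When all 16 libraries shared 1 model, Bend6 was the single gene called lower in vehicle CKO (edgeR log2 difference -7.77, adjusted p = 0.00493).

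Bmp5, a bone morphogenetic protein ligand, measured 20.7, 15.1, 10.9 and 20.1 CPM in fl/fl and 0.106, 0, 0.242 and 0 CPM in CKO. Its 3 counts in CKO against 731 in fl/fl give a ratio of 206 (95 percent interval 70.2 to 1000.5, counting error). Batf, an AP-1 family transcription factor of lymphocytes, measured 9.40, 22.4, 9.13 and 12.8 CPM in fl/fl and had 0 counts in all 4 CKO libraries, at least 161-fold lower. Cenpk, a kinetochore protein, measured 8.68, 5.09, 10.8 and 1.26 CPM in fl/fl and had 0 counts in CKO, at least 80.3-fold lower. These 4 genes were thus at or near 0 in every CKO library and present in every fl/fl library, at low levels.

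A pair of clustered protocadherins, adhesion proteins that help neurons tell their own branches apart, had the same form. Pcdhb7 measured 5.37, 12.7, 16.2 and 11.4 CPM in fl/fl and 0, 0.105, 0.121 and 0.691 CPM in CKO. Pcdhb14 measured 1.34, 5.76, 9.44 and 5.61 CPM in fl/fl and had 0 counts in CKO, at least 72.4-fold lower. Genes of this cluster resemble one another in sequence, and 50-base reads may be split between them, so these levels are uncertain.

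The remaining genes of the lower set were expressed in both genotypes. Idh2, the mitochondrial isocitrate dehydrogenase that makes NADPH, measured 127, 123, 95.8 and 128 CPM in fl/fl and 21.9, 7.44, 52.9 and 28.3 CPM in CKO, a log2 difference of -2.28 ± 0.50. Cntn1, a contactin of axons and of the nodal region, measured 107, 37.9, 125 and 154 CPM in fl/fl and 20.3, 9.54, 52.2 and 12.2 CPM in CKO, where CKO replicate 3 exceeded fl/fl replicate 2. Its log2 difference was -2.19 ± 0.54.

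Gstm5, a glutathione transferase, measured 84.9, 71.7, 151 and 122 CPM in fl/fl and 42.1, 44.2, 53.8 and 45.9 CPM in CKO, a log2 difference of -1.16 ± 0.29. Actr1b, an actin-related subunit of dynactin, measured 119, 95.6, 129 and 123 CPM in fl/fl and 49.8, 51.7, 70.1 and 71.4 CPM in CKO, a log2 difference of -0.96 ± 0.26. Both genes had separate groups and CKO libraries close to each other.

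**Figure D3:**
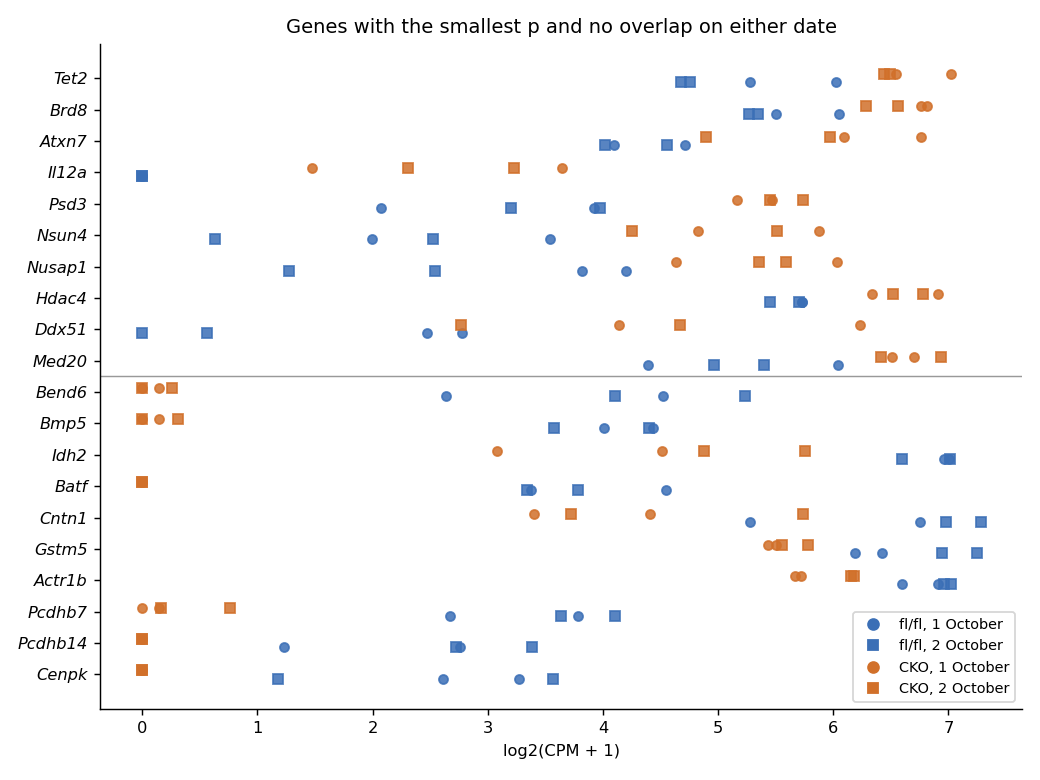
Level of the 20 genes in each vehicle library as log2(CPM + 1), fl/fl in blue and CKO in orange, circles for 1 October and squares for 2 October; the line parts the 10 with higher values in CKO (above) from the 10 with lower values. Bend6, Bmp5, Batf, Pcdhb7, Pcdhb14 and Cenpk lie at or near 0 in the CKO libraries, whereas Gstm5 and Actr1b are expressed in all 8.

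Of the 20 genes above, DESeq2 called Tet2 (DESeq2 adjusted p = 0.0497), Idh2 (0.0215), Bmp5 (6.24e-06), Bend6, Batf, Il12a, Ddx51, Pcdhb7, Pcdhb14 and Cenpk. Part of the calls of DESeq2 had counts near 0. Among all its 20 calls by genotype, 18 had a library at 10 or fewer counts. In 10 of the 20 calls every library of the lower group was at 10 or fewer. Idh2 and Tet2 had at least 71 and 316 counts in every library. The matching shares over all genes tested were not computed.

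The paclitaxel libraries carry the same genotype contrast in other samples, and there the 20 genes took the same sign about as often as all genes. The sign was the same in 10 of 20 (50 percent), against 6319 of 12705 genes (49.7 percent). Under PTX the CKO minus fl/fl log2 difference was -0.23 for Tet2, -0.18 for Brd8, -0.50 for Bend6 and -0.12 for Batf. It was -0.03 for Idh2, and 3.70 and 3.78 for Bmp5 and Pcdhb7, opposite in sign to their vehicle values. The test of the difference between treatments, PTX minus vehicle, called 0 of 14200 genes with edgeR (0 percent), while DESeq2 called 68. In edgeR 545 genes (3.84 percent) had an unadjusted p under 0.05, also a smaller share than this threshold gives by chance. None of the 20 was called by edgeR in that test.

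In the lymphotoxin receptor pathway no member was called by genotype. Of its ligands, Ltb, the membrane lymphotoxin subunit, measured 31.0, 38.2, 17.6 and 31.7 CPM in fl/fl and 15.0, 9.96, 52.4 and 31.5 CPM in CKO, a log2 difference of -0.35 ± 0.62 with overlapping groups. Tnfsf14, which encodes LIGHT, measured 32.3, 20.5, 7.34 and 10.5 CPM in fl/fl and 31.5, 34.8, 15.0 and 25.6 CPM in CKO, a log2 difference of 0.75 ± 0.54. Lta, the secreted lymphotoxin subunit, failed the filter on low counts.

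Downstream, Map3k14, the NIK kinase, varied widely between libraries, at 0.62, 4.87, 13.1 and 3.32 CPM in fl/fl and 0.319, 7.13, 8.49 and 13.8 CPM in CKO. Relb measured 41.4, 63.3, 25.1 and 44.0 CPM in fl/fl and 49.3, 67.8, 15.5 and 73.0 CPM in CKO, a log2 difference of 0.26 ± 0.50. Nfkb2, itself a target of NF-kB, measured 151, 206, 69.7 and 76.1 CPM in fl/fl and 111, 119, 165 and 186 CPM in CKO, a log2 difference of 0.32 ± 0.41. The order of the genotypes in Nfkb2 turned round between the dates, as the neutrophil share did, and the part of that share in Nfkb2 was not tested.

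Birc2, the ubiquitin ligase cIAP1 that restrains NIK, was the one member of the non-canonical list with an unadjusted p under 0.05, and is named after its values were seen. It measured 30.0, 52.0, 18.9 and 19.3 CPM in fl/fl and 103, 40.2, 40.7 and 57.5 CPM in CKO, with overlap on 1 October and a log2 difference of 1.09 ± 0.43 (edgeR adjusted p = 1.00). Of the 11 members of that list tested, 10 had a log2 difference above 0, against 6092 of all 12709 genes tested. The median of the list was 0.26, against -0.03 for all genes tested. By date the list median changed sign, from -0.21 on 1 October to 0.50 on 2 October. The 20 canonical NF-kB genes had a median of 0.35, with 15 above 0, and by date the median was -0.60 on 1 October and 1.09 on 2 October. Of these 20, 6 lay below fl/fl in both CKO libraries of 1 October and above in both of 2 October, against 7.19 percent of all genes. Among 16 chemokine and adhesion genes taken as receptor targets, 10 were tested, with a median of -0.24.

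Each of the 38 lists, 23 of pathways and 15 of cell types, had 0 members called by genotype. The list of immediate-early genes, which neurons and other cells switch on within minutes of stimulation or dissociation, had a share of counts that did not overlap between genotypes, narrowly, which held for 1 of 38 lists. Among single genes, 0.905 percent had CKO wholly above and 1.67 percent wholly below, so 1 list of 38 is near that background. The list took 1.09, 1.21, 0.933 and 1.17 percent of gene counts in fl/fl replicates 1 to 4, and 1.54, 1.33, 1.22 and 1.42 percent in CKO. Of its 20 genes, 19 had a log2 difference above 0, with a median of 0.31, and 0 passed. Fos, its most abundant member, measured 2787, 3290.3, 2191 and 2677 CPM in fl/fl and 3935, 3177, 3134 and 3824 CPM in CKO, a log2 difference of 0.37 ± 0.30. The median over its genes was 0.03 on 1 October and 0.61 on 2 October, and 7 of the 20 had the neutrophil markers' order on both dates, against 7.19 percent of all genes.

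Housekeeping lists had low medians of small size. The log2 difference was below 0 in 23 of 24 respiratory chain subunits (median -0.27) and in 23 of 24 cytosolic ribosomal proteins (median -0.30), against a median of -0.03 for all genes. Under scaling by relative log expression the medians were -0.23 and -0.27, and with upper-quartile scaling -0.30 and -0.33. Within dates, 5 of 24 and 4 of 24 members had CKO below fl/fl on both dates, against 3.05 percent of all genes. Uqcrc2, a core subunit of complex III named after its values were seen, had the single unadjusted p under 0.05 of these lists, at 142, 115, 132 and 147 CPM in fl/fl and 88.3, 56.5, 85.5 and 72.8 CPM in CKO, with separate groups, a log2 difference of -0.82 ± 0.27 and an edgeR adjusted p of 1.00. Abundant members had smaller values, with a log2 difference of -0.09 ± 0.30 for Atp5b and -0.06 ± 0.25 for Rpl4. As summed shares of counts, respiratory chain genes had a CKO to fl/fl ratio of 1.10 on 1 October, opposite to the sign of their median, and 0.604 on 2 October. For cytosolic ribosomal proteins the ratio was 1.06 on 1 October, again opposite to the sign of their median, and 0.636 on 2 October.

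Sensory neuron genes were measured with wide spread between libraries. The 11 sodium channel subunits tested had a median log2 difference of -0.38, the 29 calcium, HCN, TRP and purinergic channels -0.28, and the 28 potassium channels -0.11. Calca, which encodes the peptide CGRP, measured 268, 425, 1104 and 1157 CPM in fl/fl and 629.8, 283, 1293 and 744 CPM in CKO, a log2 difference of 0.12 ± 0.36. Trpv1, the heat and capsaicin receptor of nociceptors, measured 26.0, 5.54, 119 and 63.9 CPM in fl/fl and 98.5, 116, 95.5 and 69.8 CPM in CKO. Its log2 difference of 1.30 ± 0.73 did not pass (edgeR adjusted p = 1.00), and the 2 fl/fl libraries of 1 October held the low values. Scn4b, a sodium channel beta subunit also named after its values were seen, measured 47.2, 0.775, 49.2 and 85.2 CPM in fl/fl and 14.2, 2.10, 7.39 and 3.75 CPM in CKO, with a log2 difference of -2.57 ± 1.14 and overlap through fl/fl replicate 2.

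Mbp and Gja1 were examined among glial genes with both dates combined. The log2 difference was 0.12 ± 0.30 for Mbp, myelin basic protein of Schwann cells. Gja1, the gap junction protein connexin 43 of satellite glia, was named after its values were seen for its unadjusted p of 0.0165. It measured 225, 161, 186 and 187 CPM in fl/fl and 112, 136, 118 and 84.8 CPM in CKO, with separate groups and a log2 difference of -0.76 ± 0.28 (edgeR adjusted p = 1.00). Among interferon-induced genes, Gbp2, a guanylate-binding protein named in the same way, measured 93.5, 78.7, 33.7 and 32.8 CPM in fl/fl and 25.7, 11.7, 19.0 and 25.3 CPM in CKO, again separate, with a log2 difference of -1.39 ± 0.49. Under vehicle the median of the 22 interferon-induced genes was -0.14. Under PTX the log2 difference was -1.32 for Gbp2, with a median of -0.28 for the list. The satellite glial list, which includes Gja1, had a median of -0.18 under vehicle and 0.75 under PTX, opposite in sign.

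**Figure D4:**
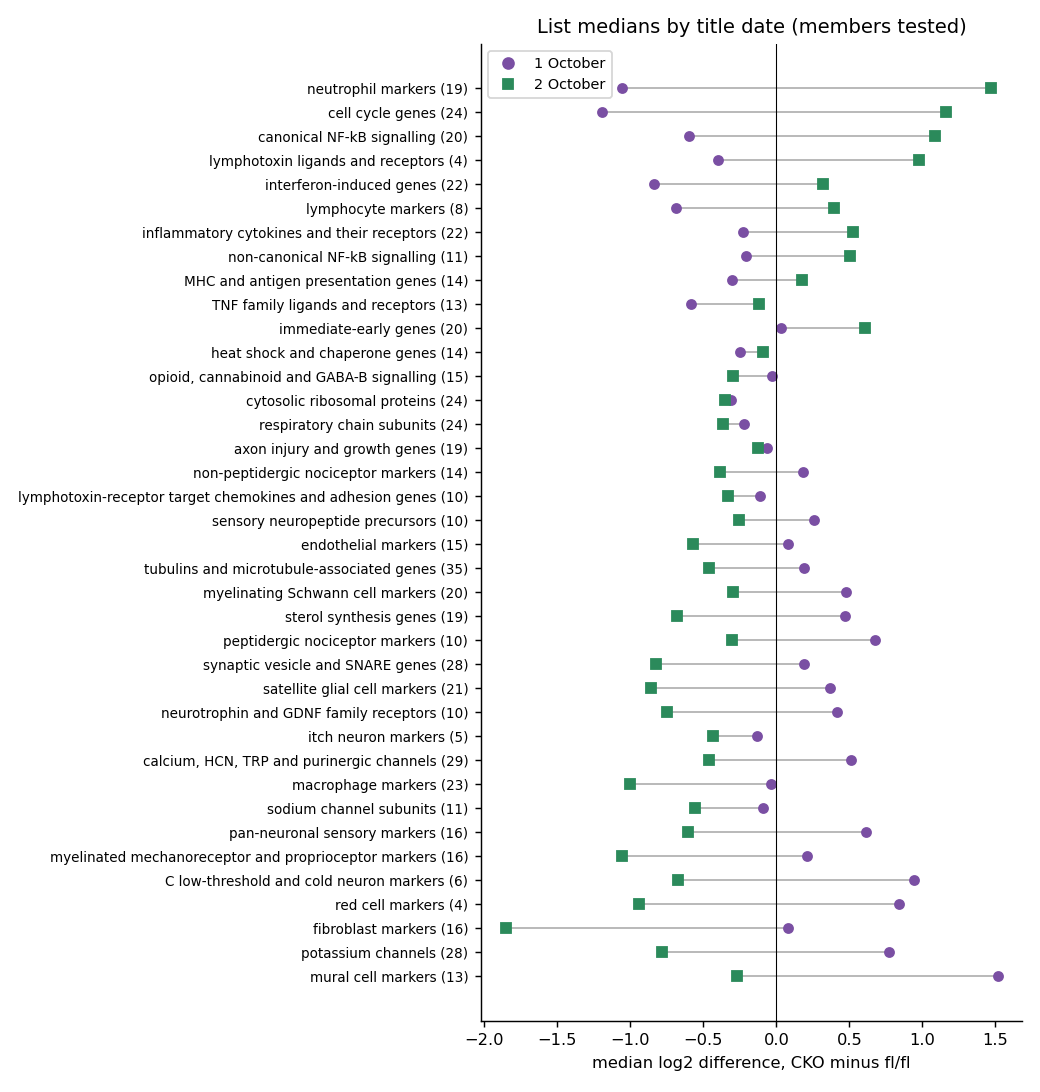
Median log2 difference, CKO minus fl/fl, of the tested members of each of 38 lists (number in brackets), on 1 October (purple circles) and 2 October (green squares). Neutrophil markers run from -1.06 to 1.47 and cell cycle genes from -1.20 to 1.16, while satellite glial markers run from 0.37 to -0.86 and ribosomal proteins lie at -0.31 and -0.35.

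The genotype difference itself differed between the dates for a set of genes, most of them in the same sense. A model with a genotype difference for each date called 232 genes as higher on 2 October than on 1 October (1.83 percent) and 9 as lower (0.0708 percent), 241 in all (1.9 percent), with edgeR's quasi-likelihood test and Benjamini-Hochberg adjustment. Of the 232, 224 had both CKO libraries below both fl/fl libraries on 1 October and above them on 2 October. Their median log2 difference was -0.997 on 1 October and 1.58 on 2 October. With each date having 2 libraries per genotype and 4 residual degrees of freedom, the calls rest on few libraries. Without any single fl/fl library, or without CKO replicate 4, the number called was 0, and it was 191, 345 and 139 without CKO replicates 1, 2 and 3.

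In the same model, the genotype difference on 1 October by itself called 0 genes, with 1028 (8.09 percent) at an unadjusted p under 0.05. The difference on 2 October called 125 higher (0.984 percent) and 1 lower (0.00787 percent), 126 in all (0.991 percent), but a fit of the 4 libraries of 2 October alone called 0.

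Neutrophil genes led this set. All 19 neutrophil markers tested were below fl/fl in CKO on 1 October and above it on 2 October, an order held by 7.19 percent of all genes. Of the 19, 16 were called, against 1.83 percent of all genes. Mmp8, the neutrophil collagenase, measured 3385 and 3046 CPM in fl/fl and 1295 and 1472 CPM in CKO on 1 October, then 901 and 901 CPM in fl/fl and 2706 and 2854 CPM in CKO on 2 October. Its log2 difference went from -1.22 to 1.63, a difference between dates of 2.84 ± 0.25 (edgeR adjusted p = 0.0101). Clec4e, a receptor of myeloid cells for damaged cells and fungal glycolipids, went from -1.20 to 1.91, a difference of 3.11 ± 0.29 (edgeR adjusted p = 0.0101). Anxa1, annexin A1, went from -0.98 to 1.70 (2.67 ± 0.27, edgeR adjusted p = 0.0101).

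The granule proteins were among the most abundant RNAs of these libraries. Ngp measured 29041 and 31103 CPM in fl/fl and 12480.0 and 17982 CPM in CKO on 1 October, and 13702 and 11402 CPM in fl/fl and 36679 and 39769 CPM in CKO on 2 October. S100a8, a subunit of calprotectin, measured 76294 and 61931 CPM in fl/fl and 19613 and 42916 CPM in CKO on 1 October, and 23733 and 28861 CPM in fl/fl and 77571 and 77781 CPM in CKO on 2 October. Ltf, lactoferrin, measured 12424 and 14576 CPM in fl/fl and 5745 and 8583 CPM in CKO on 1 October, and 5948 and 4896 CPM in fl/fl and 15310.5 and 18583 CPM in CKO on 2 October. In each of these genes the libraries of a genotype lay on opposite sides of the other genotype on the 2 dates.

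Because these genes were called together, the 250 bases before the start of 4 of them are shown, from RefSeq on GRCm38.p6, a later build than the mm9 of the counts. A promoter entry was matched for 13 of the 16 called neutrophil markers. Capitals mark matches on either strand to TTGCNNAA, a core motif of C/EBP factors, or to GAGGAA, a core of PU.1 sites, factors known to direct granulocyte genes. The sequences are those of Mmp8 (chr9:7558179-7558428, plus strand), Ltf (chr9:111019042-111019291, plus strand), Ngp (chr9:110419558-110419807, plus strand) and S100a8 (chr3:90668821-90669070, plus strand), each 5′ to 3′ on the strand of the gene:
Mmp8: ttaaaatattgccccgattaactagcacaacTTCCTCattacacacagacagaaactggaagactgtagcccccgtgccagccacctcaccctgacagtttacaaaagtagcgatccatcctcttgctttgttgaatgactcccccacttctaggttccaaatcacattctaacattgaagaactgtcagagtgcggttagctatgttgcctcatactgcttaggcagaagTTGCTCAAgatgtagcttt
Ltf: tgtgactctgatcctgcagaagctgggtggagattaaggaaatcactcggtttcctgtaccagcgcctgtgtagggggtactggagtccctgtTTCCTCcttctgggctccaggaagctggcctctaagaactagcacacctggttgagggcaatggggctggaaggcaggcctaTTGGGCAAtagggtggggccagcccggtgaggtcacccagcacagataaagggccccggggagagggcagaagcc
Ngp: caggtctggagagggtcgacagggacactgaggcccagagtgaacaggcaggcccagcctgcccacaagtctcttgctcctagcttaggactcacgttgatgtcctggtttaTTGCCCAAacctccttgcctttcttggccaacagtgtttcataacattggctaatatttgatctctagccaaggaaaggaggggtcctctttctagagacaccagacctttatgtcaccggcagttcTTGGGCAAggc
S100a8: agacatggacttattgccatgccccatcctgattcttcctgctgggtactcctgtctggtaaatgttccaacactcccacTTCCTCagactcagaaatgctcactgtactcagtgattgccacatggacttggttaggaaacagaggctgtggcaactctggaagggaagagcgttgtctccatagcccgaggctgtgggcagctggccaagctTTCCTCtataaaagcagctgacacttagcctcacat
The C/EBP letters occurred in 6 of 13 windows (46.2 percent) and in 2582 of all 27025 windows of the same length (9.6 percent). The PU.1 letters occurred in 7 of 13 (53.8 percent) and in 6252 of all windows (23.1 percent). Each of the 4 windows shown holds at least 1 match, whereas those of Ifitm6, Hdc and Camp, not shown, held neither motif. The motifs do not overlap each other in letters, a match is a description and not a site, and the 13 genes were chosen by their values and their known cell type.

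Some cytokine genes were called in the same sense. Of 22 inflammatory cytokine and receptor genes, 4 were called and 5 had the neutrophil order, and of 13 TNF family genes 2 were called and 3 had that order, against 1.83 percent and 7.19 percent of all genes. Csf3r and Cxcr2, both called, are on the cytokine list and also on the neutrophil list, so they are counted in both. Tnf measured 90.2 and 97.5 CPM in fl/fl and 18.6 and 6.71 CPM in CKO on 1 October, and 26.4 and 53.5 CPM in fl/fl and 85.5 and 143 CPM in CKO on 2 October, a difference between dates of 4.41 ± 0.86 (edgeR adjusted p = 0.0426). Cxcl2, a chemokine that draws neutrophils, measured 273 and 336 CPM in fl/fl and 117 and 236 CPM in CKO on 1 October, and 76.0 and 125 CPM in fl/fl and 398 and 661 CPM in CKO on 2 October (3.18 ± 0.60, edgeR adjusted p = 0.0381). Tnfrsf1b, a receptor of TNF, had a difference between dates of 2.08 ± 0.39, and Il1rn, the interleukin 1 receptor antagonist, of 2.37 ± 0.44 (edgeR adjusted p = 0.0352 for each). These genes are transcribed by myeloid cells among others, and the neutrophil share beside them was 18.2 to 19.1 percent in fl/fl against 8.06 to 13.0 percent in CKO on 1 October, and 8.89 to 9.09 against 19.8 to 20.2 percent on 2 October. Its part in their difference was not tested.

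Of 24 cell cycle genes 0 were called. Their median was -1.20 on 1 October and 1.16 on 2 October, and 7 of the 24 had the neutrophil order, against 7.19 percent of all genes. Mki67, the proliferation antigen Ki-67, measured 76.5, 124, 74.6 and 19.0 CPM in fl/fl replicates 1 to 4, and 24.8, 54.2, 91.2 and 150.3 CPM in CKO.

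Genes called in the other direction included neuronal ones. The 9 included Kcna1, Mt1, Ppfia4, Scg3, Siae, Susd5, Tpm2 and Tspan7, and 8 of the 9 had CKO above fl/fl on 1 October and below it on 2 October. Kcna1, the potassium channel Kv1.1 of axons, measured 349 and 329.6 CPM in fl/fl and 588 and 556 CPM in CKO on 1 October, and 389 and 454 CPM in fl/fl and 218 and 188 CPM in CKO on 2 October, a difference between dates of -1.81 ± 0.32 (edgeR adjusted p = 0.0272). Scg3, a secretogranin of dense-core vesicles, gave -2.51 ± 0.45 (edgeR adjusted p = 0.0317), and Siae, a sialic acid esterase, gave -4.41 ± 0.80 (edgeR adjusted p = 0.032). Without a call, 8 of 21 satellite glial markers and 7 of 20 Schwann cell markers had this order, against 6.1 percent of all genes. Apoe, an apolipoprotein abundant in satellite glia, measured 20064 and 18373 CPM in fl/fl and 20638 and 21519 CPM in CKO on 1 October, and 26280.0 and 20752 CPM in fl/fl and 12810.1 and 8116 CPM in CKO on 2 October (-1.30 ± 0.31, edgeR adjusted p = 0.0895).

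**Figure D5:**
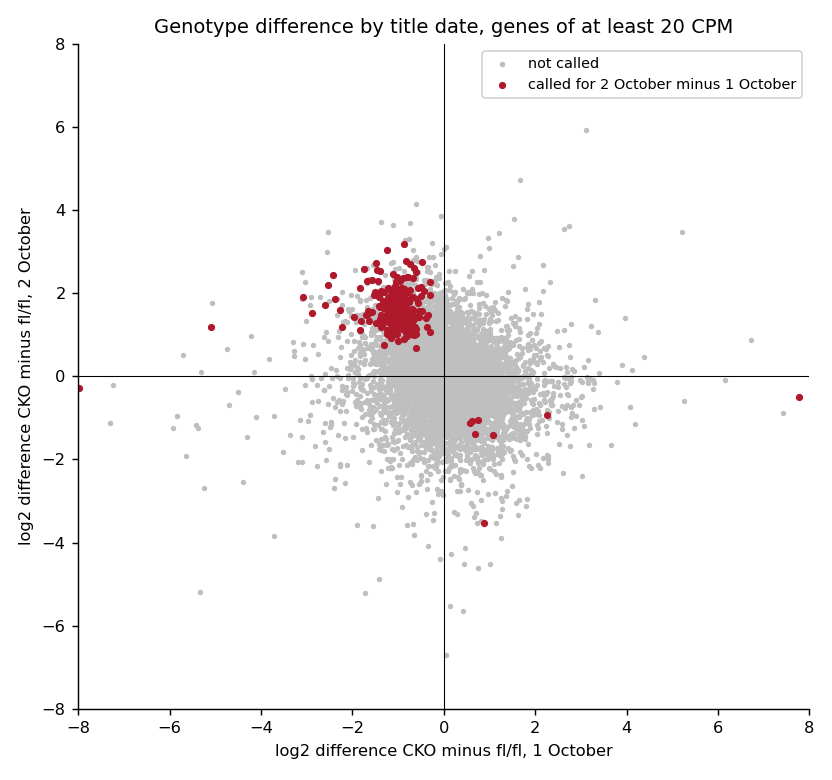
Log2 difference, CKO minus fl/fl, on 1 October (horizontal) and 2 October (vertical) for 7968 genes with at least 20 CPM in the higher group, those called for a difference between the dates in red (239 of 241 calls meet this level; 3 genes lie outside the axes and are not shown). Nearly all red points lie in the upper left, where CKO is lower on 1 October and higher on 2 October.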

How the data were processed

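RNA was measured in sorted dorsal root ganglion cells. Per the labels' protocols, libraries were prepared from roughly 500 ng of RNA by a stranded poly(A) method and read as 50-base single ends. The submitters' processing notes name bcl2fastq, TopHat2, HTSeq and mm9, without versions. The deposited values are the authors' raw read counts per gene, for 22609 genes and 5 summary lines that were left out. Whether counting used strand is not given in the sources used here, so antisense pairs may share reads. Of all alignments of the 8 vehicle libraries, 32.9 to 39.1 percent were assigned to genes and 39.5 to 43.5 percent were not unique.

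Genes were filtered with filterByExpr, scaled by TMM and tested with edgeR 4.0.16 (quasi-likelihood, robust, 8 libraries, title date as block, 5 residual degrees of freedom, R 4.3.3), two-sided. P-values were adjusted over all genes by Benjamini-Hochberg and called at 0.05. The biological coefficient of variation common to all genes was 0.871. A genotype term per date, and a model of all 16 libraries for PTX minus vehicle, gave the other tests. Standard errors are the log2 fold change over the root of its F value. Alternatives were RLE and upper-quartile scaling, other filters, no date block, each date alone, a replicate block, all 16 libraries, marker covariates, limma-voom (limma 3.58.1), DESeq2 1.42.0 and each library left out. Added after seeing the data were a genotype difference averaged over dates and, for the date test, upper-quartile scaling, no filter, limma-voom, the replicate block and the neutrophil covariate. Fitting was checked on simulated data. Precision is limited by 2 libraries per genotype and date, and the intervals and floors of 3 counts cover counting error only.

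The named genes were Ltbr and Scn10a, the 20 chosen by the rule in the text, up to 3 called or the 2 most abundant members of a list, and up to 3 genes per direction for each test of a difference; the text gives part of these, and a few are not reported here. Members and lists were chosen with earlier results of these data known. Of 753 list entries, 749 were in the files, 18 by an older symbol. The genome given is GRCm38 and was used for names and promoter sequences only.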

Additional observations from a re-analysis of the deposited data

Results flagged for a closer look

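In 6 of 116 groups of 4 libraries that were examined, 1 library stood far from the other 3; chance alone gives about 1 in 20 such groups. Tet2 measured 128.7 CPM in CKO replicate 2 against 85.9 to 92.6 in the others. Hdac4 measured 42.72 CPM in fl/fl replicate 4 against 51.0 to 52.0. Idh2 measured 95.76 CPM in fl/fl replicate 3 against 123 to 128. The non-peptidergic nociceptor share was 0.05325 percent in CKO replicate 4 against 0.0342 to 0.0346 percent. The itch neuron share was 0.02243 percent in fl/fl replicate 3 against 0.0316 to 0.0326 percent. The fibroblast share was 1.012 percent in fl/fl replicate 4 against 0.294 to 0.380 percent.

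The genotype difference differed between 1 October and 2 October for 21 genes of the lists and of the naming rule, each with an edgeR adjusted p under the threshold. The value for each is the log2 difference on 2 October minus that on 1 October. Among genes of neutrophils and other myeloid cells it was 2.84 for Mmp8, 3.11 for Clec4e, 2.67 for Anxa1, 2.59 for Ngp, 2.30 for Mmp9, 2.81 for Csf3r, 2.31 for Lyz2, 2.56 for Tyrobp and 2.83 for Cd14. The last 3 are on the macrophage list, of which 4 of 23 members were called, while the median difference between dates over the 23 was -1.27, the opposite sign. Among cytokines, chemokines and receptors it was 4.41 for Tnf, 2.08 for Tnfrsf1b, 3.18 for Cxcl2, 3.45 for Osm and 2.37 for Il1rn. It was 2.85 for Fosl2 and 2.22 for Ier3, immediate-early genes, 1.75 for H2-D1, a class I antigen presentation gene, and 3.34 for Pi16. Pi16 is on the fibroblast list, of which 1 of 16 tested members was called. The median difference between dates over the 16 was -1.76, the opposite sign. The difference between dates was -1.81 for Kcna1, -2.51 for Scg3 and -4.41 for Siae.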

How the results depend on the processing

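For the genotype comparison, 0 genes were called higher and 0 lower under each alternative run except DESeq2 (6 and 14) and the model of all 16 libraries (1 lower), and leaving out each library gave 0 to 0. Of 455 alternative values of the 20 named genes, 444 kept their direction and their side of the threshold, 11 passed it and 0 reversed. These genes were chosen for small p and no overlap on either date in the same libraries. Their kept direction largely follows from that choice and is no independent check. In the PTX libraries, which had no part in the choice, 10 of 20 kept the sign. Ltbr turned to -0.503 on 2 October alone and to -0.020 with limma-voom, and ran from -0.19 (without CKO replicate 1) to 0.25 (without CKO replicate 4). Scn10a turned to -0.090 without the date block, -0.355 on 2 October alone and -0.0551 with limma-voom, and ran from 0.04 to 0.53 without single libraries.

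Same-numbered libraries did not deviate together from the mean of their own genotype (correlations of -0.08, 0.01, -0.03 and -0.08). By these deviations, not by the levels themselves, the closest partner of each library in the other genotype was always of the other date. No number is shared between dates. The correlations therefore cannot decide whether the numbers pair libraries within a date. With the replicate block, 0 genes were called in either direction, Ltbr was 0.05 and Scn10a 0.31, and the date test called 191 genes, 177 of them among the 241.

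The date test called 812 genes with DESeq2, 465 with limma-voom, 509 without a filter, and 0 with the neutrophil covariate, which left 0 neutrophil markers. That covariate itself follows the crossed order, so the lost calls show no cause. Without single libraries it called 0 to 345 genes and 0 to 16 neutrophil markers. With the covariate 9 genes reversed: Siae (1.96), Cxcl2 (-1.77), Csf3r (-0.69), Osm (-0.61), Ier3 (-0.73), H2-D1 (-0.21), Tyrobp (-0.67), Cd14 (-0.82) and Ngp (-1.07). A fit of 2 October alone called 0 genes by genotype. PTX minus vehicle called 68 with DESeq2 and 0 to 6 without single libraries (1 without fl/fl replicate 1 or 2, 6 without CKO replicate 4). Where not stated, the cause was not tested. Depth limits the precision of genes under about 5 CPM. Presence and absence also alternated within a group at higher counts. In 2120 genes 1 library had 0 counts and another of the same genotype at least 50, and the cause was not tested.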

Other observations

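The protocadherin beta cluster, which the lists do not cover, was examined after 2 of its genes were named. Of 8 Pcdhb genes tested, 7 had a log2 difference below 0 under vehicle, against 6617 of all 12709 genes tested. The median of the 8 was -2.96, and 0 passed. The count and the median include Pcdhb7 and Pcdhb14, which had been chosen for low values in CKO. The others below 0 were Pcdhb17 (-3.83), Pcdhb20 (-3.68), Pcdhb15 (-2.24), Pcdhb3 (-0.30) and Pcdhb19 (-0.02), each with an unadjusted edgeR p above 0.05. A difference of the cluster as a whole was not tested. Within dates, Pcdhb7 and Pcdhb14 lay below fl/fl on both, which is how they had been chosen. Pcdhb16 lay above on both dates, as 1.64 percent of all genes did, at 5.89, 7.31, 9.83 and 5.13 CPM in fl/fl replicates 1 to 4 and 26.9, 24.3, 21.3 and 21.0 CPM in CKO, a log2 difference of 1.73 ± 0.67. Under PTX the median of the 8 genes was -0.98, 3 of them had higher values in CKO, and Pcdhb16 had a log2 difference of -1.64. The near-identical sequences of these genes leave the counts of single members uncertain.

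By overall profile, the libraries sorted only in part by genotype. Over 3747 genes of at least 50 CPM, fl/fl replicates 1 and 2 were closest to each other (correlation across genes of 0.86), as were fl/fl replicates 3 and 4 (0.872). CKO replicate 1 was closest to fl/fl replicate 4 (0.807), CKO replicate 2 to fl/fl replicate 2 (0.789), CKO replicate 3 to CKO replicate 4 (0.84) and CKO replicate 4 to fl/fl replicate 1 (0.841). Genes are not independent replicates, and the values describe these libraries only.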
